A study of Mus musculus with 10 samples.

Results

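Replication-dependent histone genes code for the H1, H2A, H2B, H3 and H4 proteins that package newly copied DNA. They were taken from the deposited table of protein-coding genes by name, as every gene whose symbol follows the cluster nomenclature (Hist1h to Hist4h, or the newer H1f1 to H1f5, H2ac, H2bc, H3c and H4c). This rule found 66 of 21729 genes. Of these, 6 were H1, 19 were H2A, 16 were H2B, 12 were H3 and 13 were H4 genes. The large cluster named Hist1 held 53 members, Hist2 held 10, Hist3 held 2 and Hist4 held 1. Because copies of a type are nearly alike and share reads, levels were also summed by histone type.

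The RNA came from mouse digit tip blastemas, the tissue that collects at the end of an amputated digit before it regrows. Mutant mice had the ΔLARM1/2 genotype, in which the limb enhancers LARM1 and LARM2 of the dorsal patterning gene Lmx1b are deleted, and their controls were wild type. Blastemas were collected 14 days post amputation (dpa) at 35 days of age, in 3 mutant and 2 wild type libraries, and at 12 dpa and 33 days of age, in another 3 mutant and 2 wild type libraries. All animals had a mixed CD1 and C57Bl/6 background, and each library pooled 6 central hindlimb digits. The labels name no Cre or transgene and do not say whether the libraries of a group came from separate animals, so p-values measure the spread between libraries, which may be partly technical.

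Core histones H2A, H2B, H3 and H4 form the spool of the nucleosome, and linker histone H1 binds the DNA where it enters and leaves. Cells make most of this protein during S phase, when the histone loci are transcribed at the histone locus body. The resulting mRNAs normally end in a conserved stem-loop, bound by SLBP, instead of a poly(A) tail, while some members can also give longer, polyadenylated mRNAs in cells that are not dividing.

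Libraries were made from total RNA with a stranded kit, and held 69998104 to 101632364 expected counts. Histone members took 0.199%, 0.291% and 0.442% of the counts in mutant libraries at 14 dpa, against 0.234% and 0.326% in wild type libraries at 14 dpa. At 12 dpa they took 0.454%, 0.239% and 0.365% in mutant libraries, against 0.201% and 0.165% in wild type libraries. Of the members' values above 0, 91.7% were not whole numbers, against 31.8% for the other protein-coding genes, so single members are uncertain where reads were divided among copies. Hist2h2aa1 and Hist2h3c1 had no counts in any library, and 61 members passed the filter on low counts. Lmx1b ran from 0.0278 to 0.336 CPM in mutant and from 1.69 to 2.94 CPM in wild type libraries, without overlap. Mutant 14 dpa library 1, at 0.234 CPM, is mutant by title and description and wild type by its genotype tag. The title was followed, and results that end with the tag are named as such. By Y-linked counts each group held 1 female library, and the other 6 libraries were male.

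The histone 3′ stem-loop motif, 16 bases long, was searched for on the sense strand of the GENCODE M21 transcripts (GRCm38), and 44 of 66 members held it. The form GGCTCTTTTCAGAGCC stood in 24 of them, of all types but H4. H4 members used other stems, of which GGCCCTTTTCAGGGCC was in 7. In 22 members the annotated transcript ran on for over 100 bases past the loop, and in the other 22 it stopped within 100 bases, at a median of 32. The sites below belong to members named in the results, and show the stem, loop and closing stem in capitals, with the 5 bases on either side in lower case. They are DNA letters of the sense strand, 5′ to 3′.
Hist1h1c: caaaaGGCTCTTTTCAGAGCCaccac
Hist1h1e: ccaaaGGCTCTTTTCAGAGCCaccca
Hist2h2aa2: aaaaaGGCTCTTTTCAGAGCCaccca
Hist1h2bk: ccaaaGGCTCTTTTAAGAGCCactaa
Hist1h3b: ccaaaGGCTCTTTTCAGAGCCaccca
Hist1h4n: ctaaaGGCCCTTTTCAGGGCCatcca
Hist1h4a: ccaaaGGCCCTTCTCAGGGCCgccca
The annotated transcript continued for 840 bases after the loop in Hist1h1c and 1153 in Hist1h1e, against 35 in Hist2h2aa2, 30 in Hist1h2bk, 51 in Hist1h3b, 31 in Hist1h4n and 108 in Hist1h4a.

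Summed over all members, histone mRNA was highest in single libraries of the mutant on both days, and its spread within the mutant was wide. The sum, in CPM (counts scaled to library size with TMM factors), was 2354, 2938 and 4657 in mutant libraries at 14 dpa, against 2391 and 2889.8 in wild type libraries at 14 dpa. At 12 dpa it was 4169.9, 2385 and 3340.4 CPM in mutant libraries, against 2047 and 1701 CPM in wild type libraries. The genotypes overlapped at 14 dpa, where the lowest of the 5 libraries was a mutant, and did not overlap at 12 dpa, where every mutant library was above both wild type libraries. The mutant minus wild type difference was 0.28 on the log2 scale at 14 dpa (SE 0.36, n = 3 and 2) and 0.78 at 12 dpa (SE 0.36, n = 3 and 2). Averaged over the days it was 0.53 (SE 0.25). Without mutant 14 dpa library 3 the 14 dpa difference was 0.000976, and without wild type 14 dpa library 1 it was 0.14. These sums are given without a test. In bulk tissue, fewer cells of a type and less RNA per cell cannot be told apart. On TPM rescaled to the protein-coding table, the 14 dpa difference was -0.16 and the 12 dpa difference 1.03, and the 14 dpa sums of H2A, H2B, H3 and H4 were lower in mutants on that scale too.

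H1 was the type whose summed CPM separated the genotypes over all 10 libraries. H1 members summed to 686, 908 and 1147 CPM in mutant libraries at 14 dpa, against 560.1 and 581.6 CPM in wild type libraries at 14 dpa. At 12 dpa they summed to 887, 584 and 726 CPM in mutant libraries, against 469 and 412 CPM in wild type libraries. The lowest mutant value, 584, was close to the highest wild type value, 581.6. Group means at 14 dpa were 913 ± 231 CPM in mutants (SD, n = 3) and 571 ± 15.2 CPM in wild type (SD, n = 2). The log2 difference was 0.65 at 14 dpa (SE 0.26) and 0.71 at 12 dpa (SE 0.26). The 14 dpa value was 0.20 on TPM of the protein-coding table. On that scale the genotypes overlapped at 14 dpa, with a mutant library below both wild type libraries.

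The 4 core types had higher means in mutants on both days, and H2A, H2B and H3 separated the genotypes at 12 dpa. H2A summed to 779 ± 268 CPM in mutants and 669.8 ± 127 CPM in wild type at 14 dpa, and to 806 ± 224 CPM in mutants and 421 ± 69.9 CPM in wild type at 12 dpa (SD, n = 3 and 2). H2B summed to 311 ± 112 CPM in mutants and 245 ± 5.61 CPM in wild type at 14 dpa, and to 324 ± 79.7 CPM in mutants and 188 ± 39.3 CPM in wild type at 12 dpa. The libraries of the genotypes overlapped at 14 dpa in both types and did not overlap at 12 dpa. H3 summed to 663 ± 335 CPM in mutants and 581 ± 129 CPM in wild type at 14 dpa, and to 791 ± 259 CPM in mutants and 405 ± 19.1 CPM in wild type at 12 dpa. H4 summed to 649 ± 263 CPM in mutants and 574 ± 87.0 CPM in wild type at 14 dpa, and to 645 ± 182 CPM in mutants and 420.1 ± 75.9 CPM in wild type at 12 dpa. H3 libraries did not overlap at 12 dpa, whereas H4 libraries overlapped on both days. Log2 differences at 14 dpa were 0.18 for H2A (SE 0.37), 0.29 for H2B (SE 0.34), 0.10 for H3 (SE 0.46) and 0.11 for H4 (SE 0.39), each smaller than its SE. At 12 dpa they were 0.91 for H2A, 0.78 for H2B, 0.91 for H3 and 0.59 for H4, with the same SEs. The 14 dpa values turned without mutant 14 dpa library 3, to -0.08 for H2A, -0.29 for H3 and -0.20 for H4, and H2B was then at 0.01. Without wild type 14 dpa library 1 they were -0.02 for H2A, -0.13 for H3 and -0.04 for H4. Leaving out any single library kept the 12 dpa differences between 0.39 and 1.19. Whether the genotype difference itself changed between the days is tested per gene further on.

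**Figure D1:**
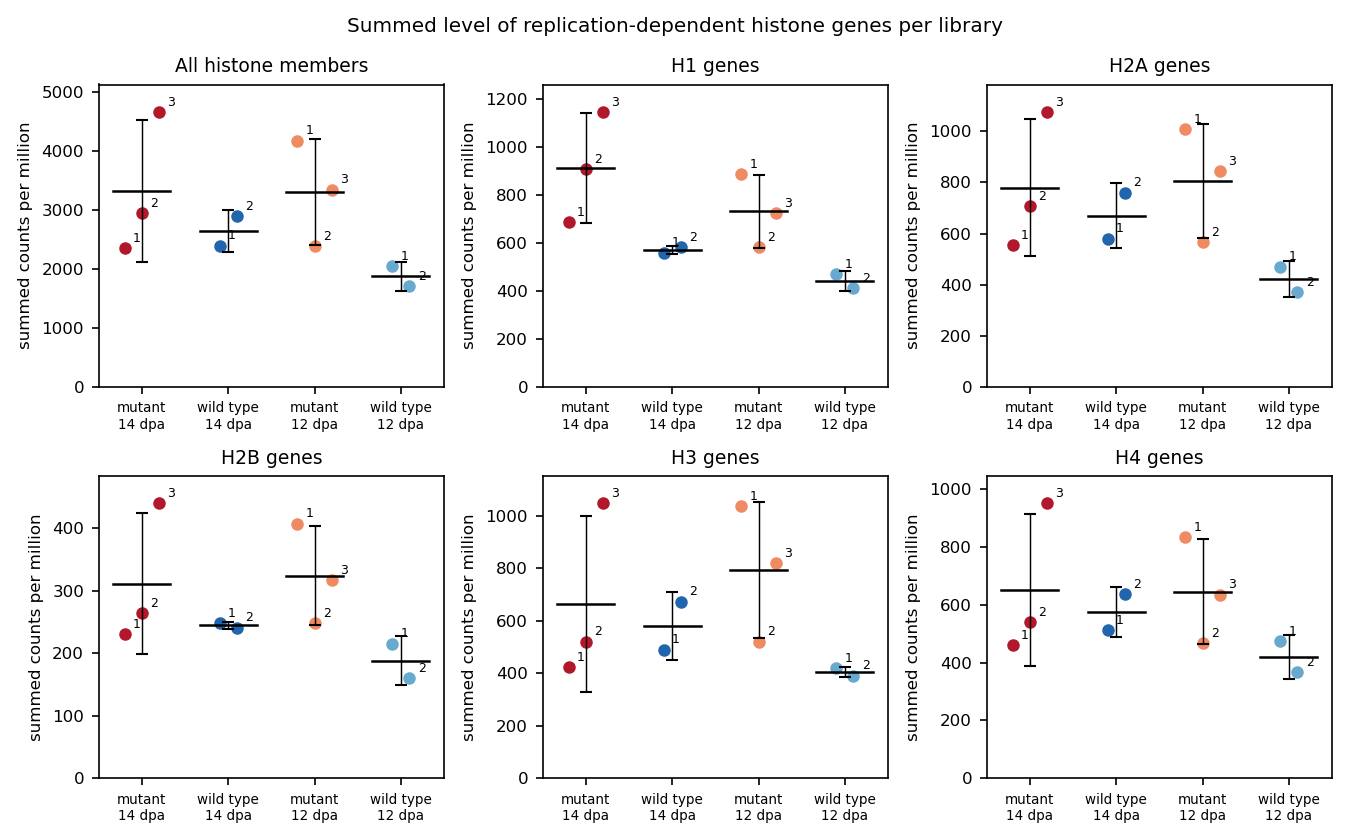
Summed CPM (linear axis) of the members of each histone type in each library, by genotype and day; numbered dots are libraries, the bar is the group mean and the error bar its SD. H1 is the panel in which the mutant libraries (584 to 1147 CPM) all lie above the wild type libraries (412 to 581.6 CPM).

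The makeup of the histone pool was described per unit of length, as shares of the summed TPM. These shares, and ranks by mean TPM, depend on the annotated lengths, which ran from 312 to 7425 bases. Hist1h1d, annotated with 7425 bases, had 54.2 to 209 CPM and a mean TPM of 12.6. Hist1h4k, annotated with 312 bases, had 6.96 to 19.2 CPM and a mean TPM of 96.2. H1 made up 9.72%, 10.1% and 7.92% of histone TPM in mutant libraries at 14 dpa, against 7.78% and 6.60% in wild type libraries at 14 dpa. At 12 dpa it made up 7.26%, 7.93% and 7.03% in mutant libraries, against 7.53% and 8.29% in wild type libraries. The H1 share was thus above wild type in the 3 mutant libraries at 14 dpa and overlapped at 12 dpa. H4 made up 23.4%, 23.3% and 23.9% in mutant libraries at 14 dpa, against 25.96% and 24.0% in wild type libraries at 14 dpa, and 24.1%, 24.4% and 22.2% in mutant libraries at 12 dpa, against 27.7% and 26.01% in wild type libraries at 12 dpa. Its share was lower in mutants without overlap within each day. Over both days the ranges met, from 22.2% to 24.4% in mutants and from 24.0% to 27.7% in wild type. The 10 members with the highest mean TPM supplied 48.3% of histone TPM.

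Gene by gene, 5 members rose in the mutant over both days and none fell (edgeR's quasi-likelihood test, Benjamini-Hochberg adjusted p under 0.05 over 20216 genes). They were the linker histone genes Hist1h1c and Hist1h1e, the H2A genes Hist2h2aa2 and Hist1h2ai, and the H2B gene Hist1h2bc. Among all genes tested 21.5% were called higher and 22.2% lower, so 5 of 61 is a smaller share than the background. By type, 2 of 6 H1, 2 of 16 H2A and 1 of 16 H2B genes passed, with 0 of 11 H3 and 0 of 12 H4 genes. The fitted log2 difference was positive in 57 of 61 members, beside 10400 of 20216 genes. Its median was 0.49, beside 0.02 for all genes and 0.08 for protein-coding genes. An unadjusted p under 0.05 was reached by 11 of 61 members and by 10625 of 20216 genes, so the members' share was smaller. The count of 5 was 3 without wild type 12 dpa library 2, 10 without mutant 12 dpa library 2 and 9 without mutant 14 dpa library 1. With mutant 14 dpa library 1 placed in wild type, as its tag has it, 0 members passed over both days, at 14 dpa and at 12 dpa, and so did 0 of all genes. In the 6 male libraries, a setting chosen after seeing the data, 2 members, Hist1h1c and Hist1h2bc, passed over both days and 0 at 14 dpa and at 12 dpa, with medians of 0.60, 0.38 and 0.71.

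At 14 dpa 2 members rose, Hist1h1c and Hist1h1e, and none fell, against a background of 16.1% called higher and 17.2% lower. The median difference was 0.10, with 40 of 61 members positive, beside -0.002 and 10083 of 20216 for all genes. The count was 1 without wild type 14 dpa library 2. At 12 dpa 4 members rose, Hist1h1c, Hist1h2ai, Hist1h2bc and the H2B gene Hist1h2bn, and none fell, a share close to the background of 7.18% called higher, beside 9.34% called lower. The median difference was 0.81, and 59 of 61 members were positive, beside 0.03 and 10530 of 20216 for all genes. Copies share reads, so the members are not independent. This count rested on single libraries. It was 0 without wild type 12 dpa library 2 or mutant 12 dpa library 1, 1 without wild type 12 dpa library 1, and 2 without mutant 12 dpa library 3. It was 10 without mutant 12 dpa library 2, 8 without mutant 14 dpa library 1 and 12 without mutant 14 dpa library 3.

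**Figure D2:**
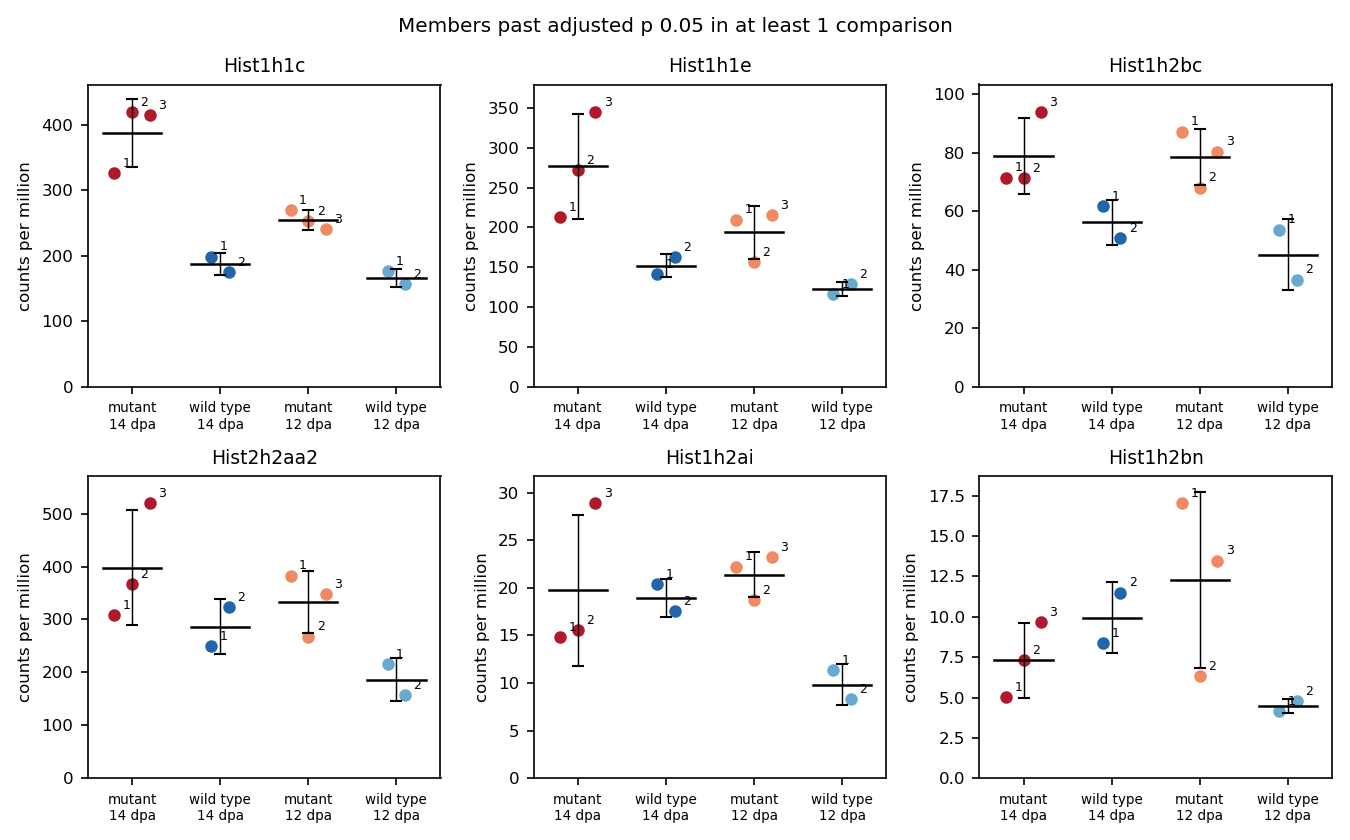
CPM (linear axis) in each library of the 6 members that rose in the mutant over both days, at 14 dpa or at 12 dpa; numbered dots are libraries, the bar is the group mean and the error bar its SD. Hist1h1c and Hist1h2bc are the panels in which all 6 mutant libraries lie above all 4 wild type libraries.

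Counted by overlap of libraries instead of a test, 2 members, Hist1h1c and Hist1h2bc, were higher in every mutant than in every wild type library, and none was lower. Of all genes, 13.8% were higher and 15.9% lower in this way. At 14 dpa 6 members were higher and 1 lower without overlap, against backgrounds of 30.8% and 31.6%. The lower member, Hist1h1t, and Hist1h2ba among the higher ones rested on few reads, at most 45 and 35.3 counts in a library. At 12 dpa 38 members were higher and 1 lower, against backgrounds of 25.7% and 26%. The 38 held 3 H1, 12 H2A, 9 H2B, 7 H3 and 7 H4 genes. The share of members higher without overlap was thus below the background at 14 dpa and above it at 12 dpa.

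**Figure D3:**
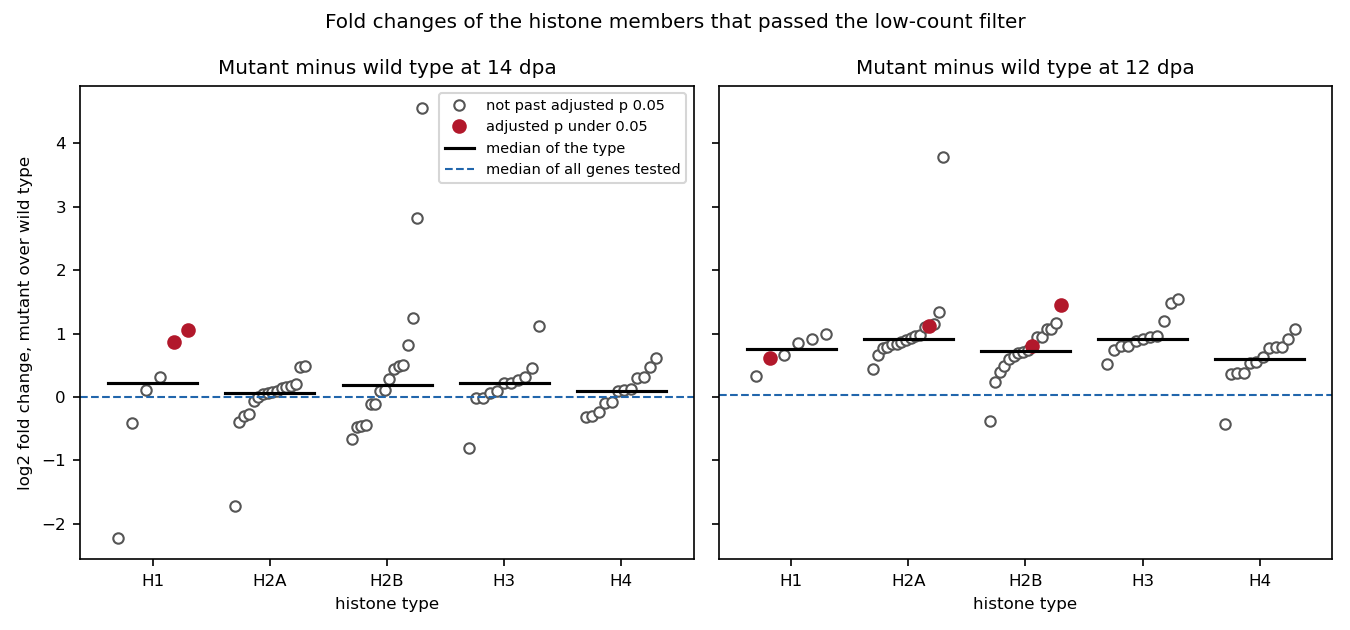
Log2 difference, mutant minus wild type, of each tested member at 14 dpa and at 12 dpa (edgeR), by histone type; filled points passed an adjusted p of 0.05, black bars are medians of a type and the dashed line is the median of all genes. At 14 dpa 40 of 61 points lie above 0 (median 0.10), and at 12 dpa 59 of 61 do (median 0.81).

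Among the linker histones, Hist1h1c (the H1.2 gene) rose over both days and on each day, and Hist1h1e (the H1.4 gene) over both days and at 14 dpa. Hist1h1c had 326, 419 and 415 CPM in mutant libraries at 14 dpa, against 199 and 175 CPM in wild type libraries at 14 dpa. It had 269.8, 252 and 241 CPM in mutant libraries at 12 dpa, against 176 and 156 CPM in wild type libraries at 12 dpa. All 6 mutant libraries were above all 4 wild type libraries, and the mutant libraries at 14 dpa were above those at 12 dpa. The log2 difference was 0.83 over both days (adjusted p = 0.000419, SE 0.10), 1.05 at 14 dpa (adjusted p = 0.00206, SE 0.15) and 0.61 at 12 dpa (adjusted p = 0.0221, SE 0.15). The 12 dpa call was lost without wild type 12 dpa library 1 (adjusted p = 0.0617), wild type 12 dpa library 2 (0.148) or mutant 12 dpa library 1 (0.0578). With mutant 14 dpa library 1 placed in wild type, the adjusted p was 0.0801 over both days and 0.568 at 14 dpa.

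Hist1h1e had 213, 272 and 345 CPM in mutant libraries at 14 dpa, against 142 and 163 CPM in wild type libraries at 14 dpa, and 210.0, 156 and 215 CPM in mutant libraries at 12 dpa, against 117 and 129 CPM in wild type libraries at 12 dpa. Mutants were above wild type without overlap on each day, while mutant 12 dpa library 2 (156) lay below wild type 14 dpa library 2 (163). The log2 difference was 0.76 over both days (adjusted p = 0.0035, SE 0.15), 0.86 at 14 dpa (adjusted p = 0.015, SE 0.21) and 0.66 at 12 dpa (adjusted p = 0.061, SE 0.21). The 14 dpa call was lost without wild type 14 dpa library 1 (adjusted p = 0.103) or library 2 (0.0664), and the call over both days was lost when the tag of mutant 14 dpa library 1 was followed (0.0652). Hist1h1b (the H1.5 gene), among the 3 H1 genes with the highest mean TPM, did not pass, with 39.4, 62.0 and 110.4 CPM in mutant libraries at 14 dpa, against 55.2 and 75.2 CPM in wild type libraries at 14 dpa, and 115, 49.4 and 83.9 CPM in mutant libraries at 12 dpa, against 45.2 and 37.9 CPM in wild type libraries at 12 dpa (log2 difference over both days 0.55, adjusted p = 0.191, SE 0.32). Its genotypes overlapped at 14 dpa and did not at 12 dpa. H1 genes are less alike than most core histone copies, at 63.7% to 76.2% identity of the transcript with the closest other H1 gene. Among the core genes, Hist2h2bb lay in that range, at 72.2%. Identity was taken over the shorter transcript, which was longer for H1 pairs than for most core pairs. Hist1h1c supplied 48.9%, 46.1% and 34.7% of H1 TPM in mutant libraries at 14 dpa, against 33.1% and 25.6% in wild type libraries at 14 dpa, and the genotypes did not overlap. At 12 dpa it supplied 25.9%, 41.3% and 29.2% in mutant libraries, against 35.1% and 34.3% in wild type libraries, and they did.

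The promoters of Hist1h1c and Hist1h1e, the linker members that passed, are printed because both genes rose together at 14 dpa. Each runs from 250 bases before to 50 after the gene start on GRCm38.p6 (RefSeq), on the gene's strand, with matches to the 4 motifs given after them in capitals, on either strand. The Hist1h1c window is chr13:23738557-23738856, plus strand, and the Hist1h1e window is chr13:23622509-23622808, minus strand.
Hist1h1c: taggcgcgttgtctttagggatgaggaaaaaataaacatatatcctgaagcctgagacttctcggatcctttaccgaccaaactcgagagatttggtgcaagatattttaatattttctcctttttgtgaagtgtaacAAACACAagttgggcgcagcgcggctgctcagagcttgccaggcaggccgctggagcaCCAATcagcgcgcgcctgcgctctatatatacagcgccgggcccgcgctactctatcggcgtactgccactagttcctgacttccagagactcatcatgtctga
Hist1h1e: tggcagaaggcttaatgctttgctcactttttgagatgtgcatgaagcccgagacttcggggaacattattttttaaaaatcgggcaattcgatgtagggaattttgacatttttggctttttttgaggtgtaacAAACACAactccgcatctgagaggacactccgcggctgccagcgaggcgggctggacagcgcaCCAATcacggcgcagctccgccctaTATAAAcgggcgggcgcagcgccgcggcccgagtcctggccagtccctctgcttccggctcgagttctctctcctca
RefSeq promoters were matched for 58 members, and each motif was searched on both strands. CCAAT stood in 49 of them (84.5%, against 37.9% of 27025 promoters), in every matched H1, H2A, H2B and H3 gene and in 3 of 12 H4 genes. AAACACA stood in 5 of 6 H1 genes and in 13.8% of the members' promoters, against 7.14% of all. ATTTGCAT, the octamer letters, stood in 12 promoters, 7 H2A and 5 H2B (20.7%, against 1.75% of all), and TATAAA in 35 (60.3%, against 14.2% of all). Motifs were counted separately, also where matches overlap, and a match describes the sequence alone.

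Of the H2A genes, Hist2h2aa2 and Hist1h2ai rose over both days, and Hist1h2ai also at 12 dpa. Hist2h2aa2 had the highest mean TPM of all members (698) and supplied 30.1% to 47.8% of H2A TPM per library. It had 309, 366 and 519 CPM in mutant libraries at 14 dpa, against 249 and 324 CPM in wild type libraries at 14 dpa, and 383, 268 and 347 CPM in mutant libraries at 12 dpa, against 215 and 158 CPM in wild type libraries at 12 dpa. The genotypes overlapped at 14 dpa and not at 12 dpa. The log2 difference over both days was 0.65 (adjusted p = 0.0158, SE 0.18), and the adjusted p was 0.0675 without wild type 12 dpa library 2 and 0.0665 without wild type 14 dpa library 1. Hist1h2ai had 14.8, 15.5 and 28.9 CPM in mutant libraries at 14 dpa, against 20.4 and 17.5 CPM in wild type libraries at 14 dpa, and 22.2, 18.7 and 23.2 CPM in mutant libraries at 12 dpa, against 11.4 and 8.32 CPM in wild type libraries at 12 dpa. Its 14 dpa libraries overlapped, and its 12 dpa mutant libraries were all above wild type. The log2 difference was 0.59 over both days (adjusted p = 0.0391, SE 0.20), 0.06 at 14 dpa (adjusted p = 0.886, SE 0.28) and 1.12 at 12 dpa (adjusted p = 0.0311, SE 0.29).

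The Hist1h2ai call over both days was lost in 12 of 24 alternatives, among them upper quartile factors (adjusted p = 0.0612), no filter (0.0576) and a filter of 10 counts in every library (0.0506). Without wild type 12 dpa library 2 the adjusted p was 0.138 over both days and 0.193 at 12 dpa. Without mutant 12 dpa library 1 it was 0.0748 over both days and 0.0685 at 12 dpa, and without mutant 12 dpa library 3 it was 0.0752 over both days and 0.0688 at 12 dpa. Leaving out wild type 12 dpa library 1 lost the 12 dpa call (0.07), and leaving out wild type 14 dpa library 1 (0.0744) or library 2 (0.141) lost the call over both days. Hist1h2ap and Hist1h2ab, the other H2A genes among the 3 with the highest mean TPM (325 and 142), did not pass. Hist1h2ap had 68.4, 96.0 and 164 CPM in mutant libraries at 14 dpa, against 77.8 and 121 CPM in wild type libraries at 14 dpa, and 155, 75.9 and 136 CPM in mutant libraries at 12 dpa, against 65.6 and 58.2 CPM in wild type libraries at 12 dpa (log2 difference over both days 0.56, adjusted p = 0.143, SE 0.29). Hist1h2ab differed by 0.38 over both days (adjusted p = 0.381, SE 0.33).

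Of the H2B genes, Hist1h2bc rose over both days and at 12 dpa, and Hist1h2bn at 12 dpa. Hist1h2bc had 71.4, 71.3 and 93.9 CPM in mutant libraries at 14 dpa, against 61.7 and 50.8 CPM in wild type libraries at 14 dpa, and 87.2, 68.0 and 80.4 CPM in mutant libraries at 12 dpa, against 53.7 and 36.6 CPM in wild type libraries at 12 dpa. All 6 mutant libraries (68.0 to 93.9) were above all 4 wild type libraries (36.6 to 61.7). The log2 difference was 0.64 over both days (adjusted p = 0.00558, SE 0.14), 0.49 at 14 dpa (adjusted p = 0.0822, SE 0.20) and 0.80 at 12 dpa (adjusted p = 0.0265, SE 0.20). Without wild type 12 dpa library 2, mutant 12 dpa library 1 or mutant 12 dpa library 3 the adjusted p at 12 dpa was 0.18, 0.0687 and 0.0577, and following the tag of mutant 14 dpa library 1 gave 0.0871 over both days.

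Hist1h2bn had 5.01, 7.30 and 9.65 CPM in mutant libraries at 14 dpa, against 8.39 and 11.5 CPM in wild type libraries at 14 dpa, and 17.0, 6.32 and 13.5 CPM in mutant libraries at 12 dpa, against 4.16 and 4.80 CPM in wild type libraries at 12 dpa. The groups overlapped at 14 dpa, and the mutant was higher in all 3 libraries at 12 dpa. The log2 difference was -0.44 at 14 dpa (adjusted p = 0.406, SE 0.39) and 1.45 at 12 dpa (adjusted p = 0.0448, SE 0.42). Its 12 dpa call was lost without wild type 12 dpa library 1 (0.191), wild type 12 dpa library 2 (0.172), mutant 12 dpa library 1 (0.0983) or mutant 12 dpa library 3 (0.0869). It was also lost without wild type 14 dpa library 1 (0.0592), wild type 14 dpa library 2 (0.0604) or mutant 14 dpa library 2 (0.0595), in limma-voom (0.0819), with no filter (0.0774), on TPM without a filter (0.069) and when only the libraries of 12 dpa were fitted (0.0733), in 16 of 25 alternatives in all. Hist1h2bg, Hist1h2bk and Hist1h2bj had the highest mean TPM of the type (113, 77.9 and 68.3) and did not pass, at log2 differences over both days of 0.89 (adjusted p = 0.154, SE 0.46), 0.07 (adjusted p = 0.891, SE 0.35) and 0.32 (adjusted p = 0.344, SE 0.26). Hist1h2bg was at 1.46 without wild type 14 dpa library 1, where it passed (adjusted p = 0.0496), and at 0.53 without wild type 14 dpa library 2 (0.379), and it passed on TPM with a pseudocount of 1 (1.26, adjusted p = 0.0175).

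H3 genes code for H3.1, with cysteine at codon 97 counted from the start codon, or H3.2, with serine there. No H3 gene passed in edgeR in any contrast. Over both days 2 of 11 had an unadjusted p under 0.05, beside 10625 of 20216 genes. DESeq2 called 4 higher over both days, limma-voom 0 and limma on TPM with a pseudocount of 1 called 6. No share of all genes called is given for these tools, so these counts are not read as particular to H3. The 3 H3 genes with the highest mean TPM were Hist2h3b (251), Hist1h3b (202) and Hist1h3i (196). Their coding sequence around that codon, from GENCODE M21 on GRCm38, 5′ to 3′ with the codon in capitals, shows the base changes that set the forms apart.
Hist1h3i (H3.1): ctgcaggaggccTGTgaggcctacctc
Hist1h3b (H3.2): ctgcaggaggcgAGCgaggcctacctt
Hist2h3b (H3.2): ctgcaggaggcgAGCgaggcctacctg
TGT was in Hist1h3a, Hist1h3g, Hist1h3h and Hist1h3i, and AGC in the other 8 H3 genes. Hist1h3b had 60.5, 73.2 and 172 CPM in mutant libraries at 14 dpa, against 79.0 and 96.1 CPM in wild type libraries at 14 dpa, and 164, 87.0 and 122 CPM in mutant libraries at 12 dpa, against 69.9 and 59.5 CPM in wild type libraries at 12 dpa. At 14 dpa a single mutant library was above wild type and the others below, and at 12 dpa all mutant libraries were above. The log2 difference over both days was 0.58 for Hist1h3b (adjusted p = 0.16, SE 0.31), 0.62 for Hist2h3b (adjusted p = 0.117, SE 0.29) and 0.53 for Hist1h3i (adjusted p = 0.152, SE 0.28). Hist2h3b passed in DESeq2 (0.0496), and all 3 passed on that TPM scale, with adjusted p of 0.0426 for Hist2h3b, 0.0479 for Hist1h3b and 0.0372 for Hist1h3i. H3.1 genes supplied 37.1%, 40.9% and 37.6% of H3 TPM in mutant libraries at 14 dpa, against 39.7% and 45.2% in wild type libraries at 14 dpa, and 36.6%, 37.8% and 39.8% in mutant libraries at 12 dpa, against 38.1% and 41.2% in wild type libraries at 12 dpa. The genotypes overlapped on each day. The summed CPM of H3.1 genes differed by 0.91 at 12 dpa (SE 0.48) and that of H3.2 genes also by 0.91 (SE 0.46), on the log2 scale.

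In edgeR no H4 gene passed in any contrast either. Over both days 2 of 12 had an unadjusted p under 0.05, beside 10625 of 20216 genes. DESeq2 called 2 higher over both days, limma-voom 0 and limma on TPM 6, again without a share of all genes beside them. H4 had the smallest median difference of the types over both days (0.38). Hist1h4n, the H4 gene with the highest mean TPM (312), had 48.7, 69.1 and 116 CPM in mutant libraries at 14 dpa, against 76.6 and 88.4 CPM in wild type libraries at 14 dpa, and 120.2, 62.6 and 85.1 CPM in mutant libraries at 12 dpa, against 71.7 and 51.9 CPM in wild type libraries at 12 dpa. The genotypes overlapped on both days, and the log2 difference over both days was 0.22 (adjusted p = 0.519, SE 0.26). Hist1h4h, with a mean TPM of 231, differed by 0.43 (adjusted p = 0.226, SE 0.27), and passed on TPM (0.0211). Hist1h4a, with a mean TPM of 169, lay closest to the threshold among these 3. It had 49.1, 52.8 and 95.4 CPM in mutant libraries at 14 dpa, against 53.1 and 67.8 CPM in wild type libraries at 14 dpa, and 105, 60.1 and 84.3 CPM in mutant libraries at 12 dpa, against 41.5 and 37.8 CPM in wild type libraries at 12 dpa. Its mutant libraries overlapped wild type at 14 dpa and were all above it at 12 dpa (log2 difference over both days 0.59, adjusted p = 0.058, SE 0.22, and at 12 dpa 1.07, adjusted p = 0.0531, SE 0.32). Over both days Hist1h4a passed without mutant 14 dpa library 1 (0.0403), mutant 14 dpa library 2 (0.0475) or mutant 12 dpa library 2 (0.0332), in DESeq2 (0.0193) and on TPM (0.013).

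Copies limited how far single genes could be read. Compared over the shorter transcript of each pair, the median identity with the closest member of the same type was 98.2%, and 42 of 66 members had a copy at 95% or more. A few pairs, chosen after their values were seen, had counts that went in opposite directions between libraries of the same group. Hist1h2bq had 26.5, 17.5 and 3.92 CPM in mutant libraries at 12 dpa, while Hist1h2br had 0.136, 0.117 and 21.9 CPM in the same libraries. Added together, they had 20.6, 25.9 and 36.7 CPM in mutant libraries at 14 dpa, against 15.004 and 17.5 CPM in wild type libraries at 14 dpa, and 26.6, 17.6 and 25.8 CPM in mutant libraries at 12 dpa, against 14.5 and 12.7 CPM in wild type libraries at 12 dpa. The added values did not overlap between genotypes, by a margin of 17.6 to 17.5 CPM, and neither gene alone passed over both days. The annotated transcripts of this pair are 91.7% identical over 1254 bases. Over 381 bases, Hist1h2bq was 98.2% and Hist1h2br 98.95% identical to Hist1h2bl. These lengths differ, so the percentages cannot be ranked against each other.

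Hist1h3f had 61.5 and 7.23 CPM in wild type libraries at 14 dpa, while Hist1h3e, 98.6% identical over 836 transcript bases, had 37.2 and 112 CPM in the same libraries. Their sum was 112, 119.6 and 213 CPM in mutant libraries at 14 dpa, against 98.6 and 119.5 CPM in wild type libraries at 14 dpa, and 187, 101 and 138 CPM in mutant libraries at 12 dpa, against 84.3 and 73.8 CPM in wild type libraries at 12 dpa. In the wild type 14 dpa libraries the sum differed less than either gene did. Hist1h2al, 99.4% identical to Hist2h2aa2, had between 0 and 29.6 CPM. The largest fitted differences of single members on either day belonged to such copies and did not pass, Hist1h2br at 14 dpa (4.56, adjusted p = 0.335, SE 3.43) and Hist1h2al at 12 dpa (3.79, adjusted p = 0.367, SE 2.69), each with values that spread widely within groups. Adding it to Hist2h2aa2 left the log2 difference over both days at 0.65 (SE 0.21).

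**Figure D4:**
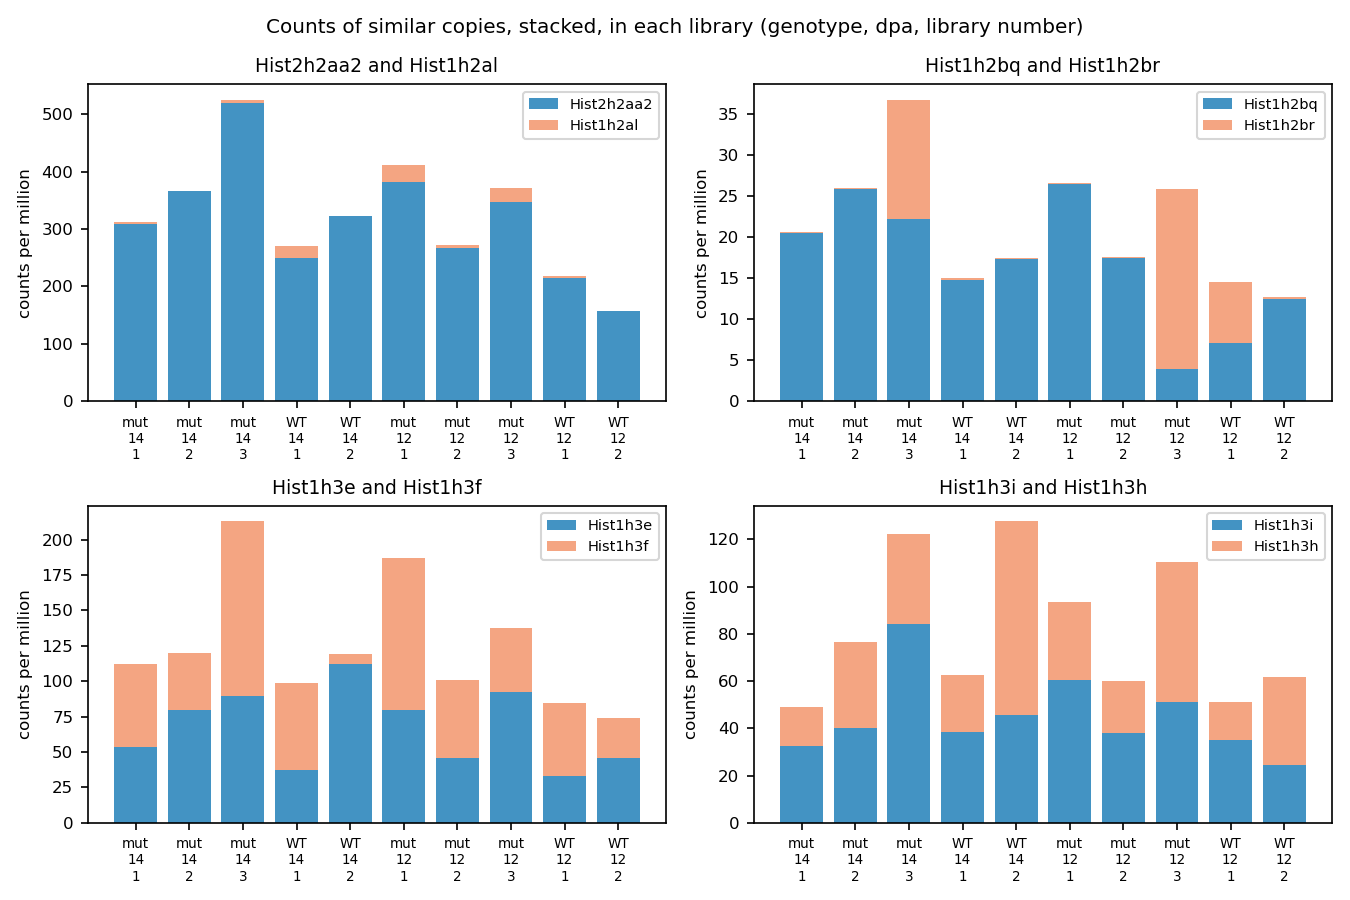
CPM (linear axis) of pairs of similar histone genes, stacked for each of the 10 libraries. In wild type 14 dpa library 2, Hist1h3f takes 7.23 and Hist1h3e 112 CPM of a sum of 119.5, whereas the shares differ in the other wild type 14 dpa library.

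The position of the stem-loop and the annotated length were compared with the calls, as a description. Over both days, 2 of 21 members with over 100 bases annotated past the loop passed (median difference 0.46), against 1 of 19 with up to 100 bases (0.51) and 2 of 21 with no match to the letters (0.53). These shares were below the 21.5% of all genes called higher. The members with no match include transcripts annotated as coding sequence alone, so they are not a group of genes without a stem-loop. Members longer than 1000 bases rose in 3 of 17 cases (median 0.57), against 25.1% of protein-coding genes of that length, and shorter members in 2 of 44 (median 0.49), against 31.9%. Protein-coding genes of up to 1000 bases had a median of 0.25 and longer ones of 0.06, so short genes in general also had the higher median. A list of other RNAs with forms that lack a poly(A) tail was mostly lower. Of 22 such RNAs listed, 13 were matched by name and 11 were tested. All genes were called higher in 21.5% and lower in 22.2%, against 25.7% and 19.3% for protein-coding genes. Genes outside the protein-coding table were thus called lower more often, and higher less often, than those in it. Beside these backgrounds, 0 of the 11 rose and 8 fell (median -1.01). Among them were the nuclear RNAs Neat1, which also has a polyadenylated short isoform (-1.93, adjusted p = 3.29e-05, SE 0.14), and Malat1 (-2.47, adjusted p = 5.17e-05, SE 0.20) and Rmrp, the RNA of the RNase MRP enzyme (-1.04, adjusted p = 0.00367, SE 0.21). The small nucleolar RNAs Snora73a (-1.39, adjusted p = 0.00221, SE 0.24) and Snora73b (-1.27, adjusted p = 0.00623, SE 0.27) fell too.

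Whether the genotype difference depended on the day was tested as an interaction, and no member passed. The median interaction was -0.72 (14 dpa difference minus 12 dpa difference), with 9 of 61 members positive. Among all genes the median was -0.02, with 9645 of 20216 positive. In edgeR an unadjusted p under 0.05 was reached by 4 of 61 members, beside 1763 of 20216 genes, so the members' share was smaller. In DESeq2 14 members reached it, for which no share of all genes is given here. After adjustment 0 members passed in DESeq2, as in limma-voom. In edgeR 0 of all genes passed after adjustment, so that background was 0%. Hist1h2bn had an interaction of -1.89 (adjusted p = 0.544), Hist1h2ai of -1.06 (0.545), Hist1h2ab of -1.54 (0.569) and Hist1h1c of 0.44 (0.58).

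Between 14 and 12 dpa, no member passed in either genotype. In mutants the median difference, 14 minus 12 dpa, was -0.16, with 19 of 61 positive, beside 9596 of 20216 among all genes. An unadjusted p under 0.05 was reached by 3 members and by 3803 of 20216 genes, so the members' share was smaller. After adjustment the background was 0.0346% of all genes called, 0.0148% higher and 0.0198% lower. DESeq2 called 1 member and limma-voom 0. In wild type the median was 0.55, with 57 of 61 positive, beside 9973 of 20216 among all genes. There 3 members and 1654 of 20216 genes reached an unadjusted p under 0.05, again a smaller share of members. The background after adjustment was 0% called, and DESeq2 and limma-voom called 0 members. By overlap, 37 members were higher and 2 lower at 14 dpa in the pair of wild type libraries, against backgrounds of 20.1% and 22.4%. In mutants 1 was higher, Hist1h1c, and 0 lower, against backgrounds of 12.5% and 11.8%. Hist1h1c differed by 0.61 between the days in mutants (adjusted p = 0.092, SE 0.13). These day comparisons share their libraries with the genotype comparisons.

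The S phase list, DNA replication and cell cycle genes, was mostly lower in mutants at 14 dpa and mostly higher at 12 dpa by its fitted differences. Over both days 9 of 65 genes of the list rose and 1 fell (median 0.16), both smaller shares than the 21.5% of all genes called higher and 22.2% called lower. At 14 dpa 0 rose and 3 fell (median -0.29, 17 of 65 positive), against backgrounds of 16.1% and 17.2%. At 12 dpa 10 rose and 0 fell (median 0.55, 62 of 65 positive), against backgrounds of 7.18% and 9.34%. Of all 20216 genes, 10083 were positive at 14 dpa and 10530 at 12 dpa. Named by their adjusted p over both days, Rfc3 (0.67, adjusted p = 0.001, SE 0.10), Rfc5 (0.45, adjusted p = 0.0164, SE 0.13) and Rfc1 (0.32, adjusted p = 0.0162, SE 0.09), subunits of the PCNA clamp loader, and Gins4 of the replicative helicase (0.44, adjusted p = 0.00447, SE 0.09) rose, and the repressor E2f7 fell (-0.98, adjusted p = 0.0114, SE 0.25). The sliding clamp gene Pcna (0.27, adjusted p = 0.116, SE 0.13), the proliferation marker Mki67 (-0.01, adjusted p = 0.983, SE 0.25) and Top2a, a topoisomerase of dividing cells (-0.10, adjusted p = 0.782, SE 0.27), did not pass.

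The summed CPM of the S phase list was 788, 829 and 1093 in mutant libraries at 14 dpa, against 913 and 1278 in wild type libraries at 14 dpa, and 1747, 1223 and 1939.8 in mutant libraries at 12 dpa, against 934 and 1341 in wild type libraries at 12 dpa. Histone CPM per S phase CPM was 2.99, 3.54 and 4.26 in mutant libraries at 14 dpa, against 2.62 and 2.26 in wild type libraries at 14 dpa. At 12 dpa the ratio was 2.39, 1.95 and 1.72 in mutant libraries, against 2.19 and 1.27 in wild type libraries. The ratio was higher in mutants without overlap at 14 dpa and overlapped at 12 dpa, and within each genotype it was higher at 14 than at 12 dpa without overlap. In mutants, 63 of 65 S phase genes had a lower fitted value at 14 than at 12 dpa (median -0.83). Of these 65 genes, 51 had an unadjusted p under 0.05 and 0 passed adjustment. Of all 20216 genes, 9596 had a higher fitted value at 14 dpa, 3803 had an unadjusted p under 0.05 and 7 passed adjustment. The histone median in mutants between the days was -0.16. No test of the ratio was made.

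**Figure D5:**
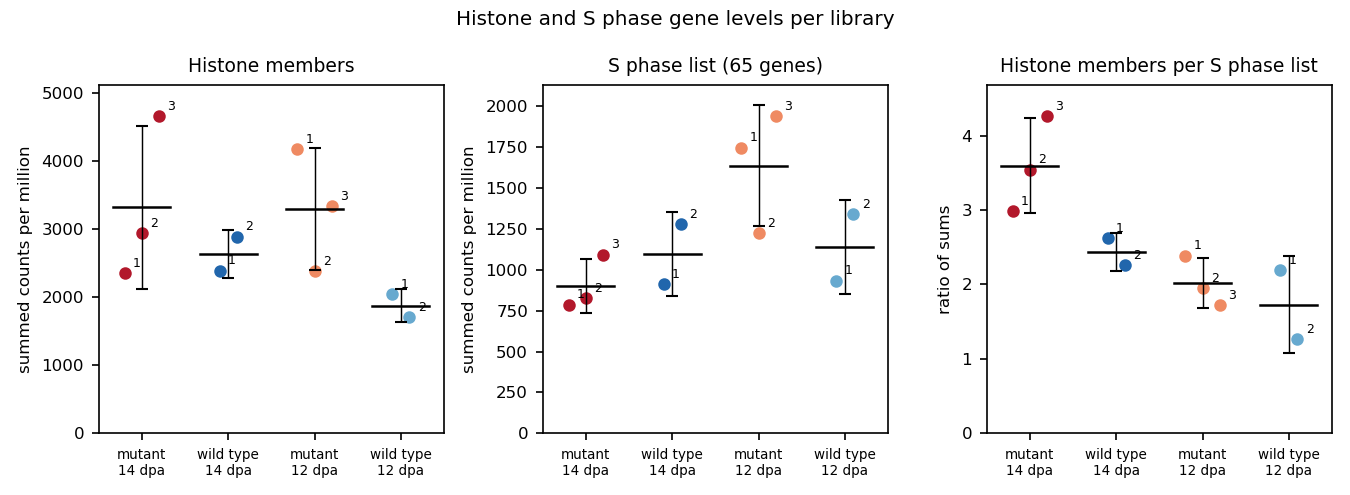
Summed CPM of the histone members, summed CPM of the 65 S phase genes, and the ratio of these sums (linear axes), by genotype and day; numbered dots are libraries, the bar is the group mean and the error bar its SD. The 3 mutant libraries at 14 dpa have the highest ratios, 2.99 to 4.26, and the other 7 libraries lie between 1.27 and 2.62.

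Genes that make and end histone mRNA had a share called higher near that of all genes and a smaller share called lower. Of 28 genes for histone transcription and 3′ processing, 8 rose and 2 fell over both days (median 0.17), against backgrounds of 21.5% and 22.2%. The stem-loop binder Slbp had 11.1, 10.8 and 15.2 CPM in mutant libraries at 14 dpa, against 13.5 and 16.03 CPM in wild type libraries at 14 dpa, and 18.9, 14.1 and 16.7 CPM in mutant libraries at 12 dpa, against 13.2 and 13.5 CPM in wild type libraries at 12 dpa. Slbp overlapped at 14 dpa and was higher in all 3 mutant libraries at 12 dpa, with a difference over both days of 0.03 (adjusted p = 0.883, SE 0.13). The histone locus body genes Npat (0.04, adjusted p = 0.646, SE 0.07) and Casp8ap2 (0.05, adjusted p = 0.698, SE 0.09) and the U7 particle gene Lsm10 (0.08, adjusted p = 0.697, SE 0.15) did not pass, and its partner Lsm11 rose (0.28, adjusted p = 0.0442, SE 0.10). Also higher were the decay factor Upf1 (0.37, adjusted p = 0.00797, SE 0.09), the cap binder Ncbp1 (0.30, adjusted p = 0.0194, SE 0.09) and the cleavage factor Cstf2 (0.26, adjusted p = 0.0283, SE 0.08). Hinfp, a transcription factor for H4 genes, fell (-0.36, adjusted p = 0.00582, SE 0.08), and so did Prkaa1, an AMPK catalytic subunit (-0.50, adjusted p = 0.00312, SE 0.10).

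Genes for proteins that carry, modify or deposit histones rose in 10 of 29 cases over both days and fell in none (median 0.25), against 21.5% called higher and 22.2% lower among all genes and 25.7% and 19.3% among protein-coding genes. Among them were the H3-H4 chaperones Nasp (0.51, adjusted p = 0.00271, SE 0.10) and Dnajc9 (0.61, adjusted p = 0.00139, SE 0.10), and Hat1 (0.50, adjusted p = 0.00225, SE 0.09) and Rbbp7 (0.38, adjusted p = 0.00641, SE 0.09), which act in the acetylation of new H4. Daxx, the H3.3 chaperone, rose as well (0.36, adjusted p = 0.00642, SE 0.08). Of 26 histone variant genes listed, 12 were matched by name. Of these 12, 4 rose and 0 fell (median 0.31), beside the same backgrounds. They were H2afy, which codes for macroH2A (0.48, adjusted p = 0.0018, SE 0.08), H2afj (0.65, adjusted p = 0.00211, SE 0.12), the linker variant of resting cells H1f0 (0.47, adjusted p = 0.00855, SE 0.11) and the H3.3 gene H3f3b (0.31, adjusted p = 0.0222, SE 0.09). H2afv, an H2A.Z gene, did not pass (0.33, adjusted p = 0.0567, SE 0.13).

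Markers of the tissue's cell types moved with genotype beside these results. The backgrounds over both days were 21.5% of all genes called higher and 22.2% called lower. Of 16 keratinocyte genes 10 rose and 1 fell over both days, and their sum ran from 75509 to 149075 CPM in mutant libraries and from 50533 to 72043 CPM in wild type libraries. Of 12 blood endothelium genes 0 rose and 12 fell, with sums of 55.7 to 110.4 CPM in mutant and 256 to 322 CPM in wild type libraries. Of 12 fibroblast genes 0 rose and 11 fell, with sums of 2860.3 to 10977 CPM in mutant and 19519 to 35602 CPM in wild type libraries. Of 11 macrophage genes 1 rose and 5 fell, with sums of 433 to 659 CPM in mutant and 369 to 466 CPM in wild type libraries. The median difference of these 11 genes was -0.87, although the sum ran higher in mutants. The highest single value of the macrophage list was 612 CPM, so in that library most of the sum came from 1 gene. No marker of these lists was at 0 in any library. Their part in the histone values was not tested.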

How the data were processed

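RNA was measured by sequencing in 10 libraries, grouped by their titles. The expected counts deposited by the authors are estimated reads per gene and are not normalized. The TPM values deposited by the authors are corrected for gene length and brought to a common library total, per the file headers, whose layout is that of RSEM. STAR 2.7.8a, RSEM 1.3.0, FastQC and the build GRCm39 are named in the submitters' processing notes, and no strand setting is given in the sources used here. RSEM divides reads that match several genes, which bears on histone copies. No GRCm39 genome was used here. Transcript sequences came from GENCODE M21 on GRCm38 and promoters from RefSeq on GRCm38.p6, by gene identifier or symbol.

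Expected counts were rounded and fitted with edgeR 4.0.16 (TMM factors, quasi-likelihood test, robust; R 4.3.3) over all 10 libraries and 4 groups. Genes were kept by a minimum count of 10 and a minimum total of 15, which left 20216 genes, with Benjamini-Hochberg adjustment over all of these and a threshold of 0.05. The 6 contrasts were the genotype difference over both days, at 14 dpa and at 12 dpa, the difference between those, and 14 minus 12 dpa within each genotype. The fit was tested on simulated data. CPM are expected counts scaled to library size with TMM factors. Sums carry no test, and their log2 differences have an SE from the spread within groups. DESeq2 1.42.0, limma 3.58.1, other scalings, other filters, TPM with pseudocounts of 1 and 0.1, a replicate block, male libraries only and leaving out each library were tried as alternatives.

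Named are members that passed in any contrast, the 3 with the highest mean TPM in each type, members whose genotypes do not overlap over all libraries, up to 5 genes of each companion list with the smallest adjusted p over both days, and Slbp, Npat, Casp8ap2, Lsm10, Lsm11, Mki67, Pcna and Top2a. The members and the lists were chosen with earlier results of these data known. For wild type 14 dpa the replicate numbers follow the titles, which reverse those of the descriptions.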

Additional observations from a re-analysis of the deposited data

How the results depend on the processing

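Over both days, where 5 members passed, 13 passed in DESeq2, 28 on TPM with a pseudocount of 1 or 0.1, 12 on TPM without a filter, 3 with the replicate number as a block, 0 with mutant 14 dpa library 1 in wild type, and 10 without wild type 14 dpa library 2 and mutant 14 dpa library 1 together, a setting chosen after seeing the data. At 14 dpa, where 2 passed, 5 passed on TPM with either pseudocount, 0 with that library in wild type, and 1 without wild type 14 dpa library 1 and mutant 14 dpa library 1, also chosen after seeing the data. At 12 dpa, where 4 passed, 18 passed in DESeq2, 15 on TPM with either pseudocount, 2 with the block, 7 when only the libraries of that day were fitted, and 0 with that library in wild type. In male libraries, chosen after seeing the data, 2 passed over both days and 0 on each day, with fewer samples. In mutants between the days, DESeq2 called 1. The share of all genes called in each of these settings is not given here, so the counts do not show a change particular to histones. At 14 dpa protein-coding genes took 27.7% and 33.6% of TPM in wild type libraries and 42.0% to 49.4% in mutant libraries. Leaving out 1 library gave 3 to 10 members over both days, 1 to 3 at 14 dpa, 0 to 12 at 12 dpa and 0 in the other contrasts. For the sum of all members it gave log2 differences of 0.39 to 0.64 over both days, 0.000976 to 0.49 at 14 dpa and 0.60 to 0.9998 at 12 dpa. On TPM of the protein-coding table the 14 dpa sum was -0.16. The causes were not tested.

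Hist1h2bk over both days (0.07, and -0.15 to 0.36 with 1 library left out) reversed with the block (-0.15) and without mutant 14 dpa library 3 (-0.13), wild type 14 dpa library 1 (-0.15), mutant 12 dpa library 1 or 3 (each -0.01) or wild type 12 dpa library 1 (-0.02). Among the other results of named members, 494 kept their direction and their side of the threshold, 61 lost a call and 21 gained one. Of all genes called, 49.2% were higher over both days, 48.3% at 14 dpa and 43.5% at 12 dpa, against 71.8%, 69.9% and 71.8% on TPM with a pseudocount of 1, 71.9%, 69.3% and 74.5% with 0.1, and 68.5%, 68.2% and 63.8% without a filter. With upper quartile factors it was 36.4% at 14 dpa, where the median of all genes was -0.11. On TPM with a pseudocount of 1 the medians of all genes were 0.14, 0.10 and 0.16. Deviations of same-numbered libraries from their group means correlated weakly (13 pairs, r from -0.121 to 0.0862). In a group of 2 libraries the deviations mirror each other, so these pairs are not independent. The values cannot decide whether the numbers pair libraries. The replicate block ended the calls of Hist2h2aa2 (adjusted p = 0.0612) and Hist1h2ai (0.0825) over both days and of Hist1h1c (0.0651) and Hist1h2bn (0.114) at 12 dpa. Depth was 69998104 expected counts or more per library, and reads divided among copies limit what single members show.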
